A study of Mus musculus with 3 samples.

Results

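The genes described here are 33 contractile, smooth muscle and pericyte genes, out of 20825 mouse genes with a matched probe on the arrays. They were listed by name, with earlier results of these data known, so their shares beside all genes are a description and not a test. The list holds muscle actins, transgelins and calponins, myosin chains, tropomyosins and other thin filament proteins, and actin anchors. It also holds the regulators and mechanical targets of this programme and a pair of pericyte genes. All 33 of 33 were matched, by 49 probes in all, and the brightest probe stands for each gene. RNA came from tail-tip fibroblasts, the connective tissue cells that grow out of a cut tail tip, on day 8 after Oct4, Sox2, Klf4 and c-Myc, the 4 factors that turn somatic cells into induced pluripotent stem cells, had been introduced. Every group received these factors, so none is an untreated fibroblast. The young WT cells came from wild-type mice of 2 months, the old WT cells from wild-type mice of 22 months, and the old p16-/- cells from mice of 22 months with a knockout of p16. The comparisons ask how cells of old donors differ from those of young donors at this stage, and how old cells without p16, a cell cycle inhibitor that accumulates with age and in senescence, differ from old cells that have it. The design text mentions 2 independent experiments, each with its own donors. A single array stands for each group here, so there is no biological error, no test and no p-value for any difference.

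Smooth muscle cells, pericytes and activated fibroblasts (myofibroblasts) build stress fibres from alpha smooth muscle actin, myosin II, tropomyosin and calponin, and pull on their surroundings through focal adhesions. Much of this set is transcribed by serum response factor (Srf), which binds a DNA element called the CArG box. Srf works with myocardin in smooth muscle and with the myocardin-related factors, which sense free actin, in other cells. A parallel arm runs through Yap1 and the TEAD factors, which respond to stiffness and spreading. Cultured fibroblasts carry many of these genes, and the programme is known to be shut down as fibroblasts lose their identity on the way to pluripotency.

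The measured quantity is the processed signal, the background-subtracted brightness of a probe in intensity units. Signals are given unscaled. Ratios were taken after dividing each array by its 75th percentile (2138 in young WT, 2051 in old WT, 2058 in old p16-/-) and are given as log2 values or folds. Between 57.4% and 61.6% of spots were well above background on an array, and no spot was saturated. A member bright enough on only 1 of the 2 arrays compared has a bound in place of a ratio, set against the dim array's lowest signal above background or the dim probe's own level, whichever is higher, and written "at least". Probes spotted repeatedly on 1 array gave a technical SD of 0.0776 for a log2 ratio of the old arrays and 0.0782 for old WT over young WT. That error covers the spotting alone and not the donors, cultures or labelling.

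Per the file headers the 3 arrays lay on 1 slide and were scanned together, but they differed as a whole in ways that touch what follows. The young array differed from both old arrays in sex-linked genes. Xist gave 1548 on old WT and 1387 on old p16-/- and stayed at background in young WT, and Ddx3y gave 3949 on young WT and stayed at background in both old arrays. Macrophage markers also moved. On old p16-/-, 8 of 12 were at least 2-fold lower than on old WT, against 6.61% of all genes. All 8 were bounds, and the median log2 ratio of the 12 (-1.85) is set by bounds. Ptprc alone was at least 2-fold higher (a bound of 1.32), against 5.89% of all genes. On old WT, 9 of 11 were at least 2-fold lower than on young WT (median -2.20), against 3.17%. Proliferation genes were above 0 in all 11 of 11 for old p16-/- over old WT (median 0.64) and below 0 in 11 of 11 for old WT over young WT (median -0.37). The part of donor sex, other cells or growth rate in the results below was not tested. Cdkn2a, the gene of p16 and of the Arf protein, gave 62705 in young WT, 65464 in old WT and 28065 in old p16-/-. The sources used here do not say whether its probe lies in the deleted stretch, so this value does not check the genotype.

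Old p16-/- cells carried less of the contractile programme than old WT cells on these arrays. Of the 32 members that could be counted, 12 were at least 2-fold lower, against 6.61% of the 14691 genes counted. Only Myocd was at least 2-fold higher, against 5.89% of all genes. In total 27 members lay below 0, against 46.7% of all genes. The median log2 ratio of the members was -0.80 against 0.02 for all genes. Among the 25 members whose brighter array reached a signal of 1000, 10 were at least 2-fold lower, against 4.21% of such genes, and 0 were higher, against 2.67%. Fewer cells with the programme and less RNA per cell cannot be told apart in these bulk samples. Tpm1 (-1.03) and Lmod1 (a bound of -1.04) lay just inside the 2-fold line, and Myh10 (-0.98) and Myh11 (a bound of -0.97) just outside it.

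**Figure D1:**
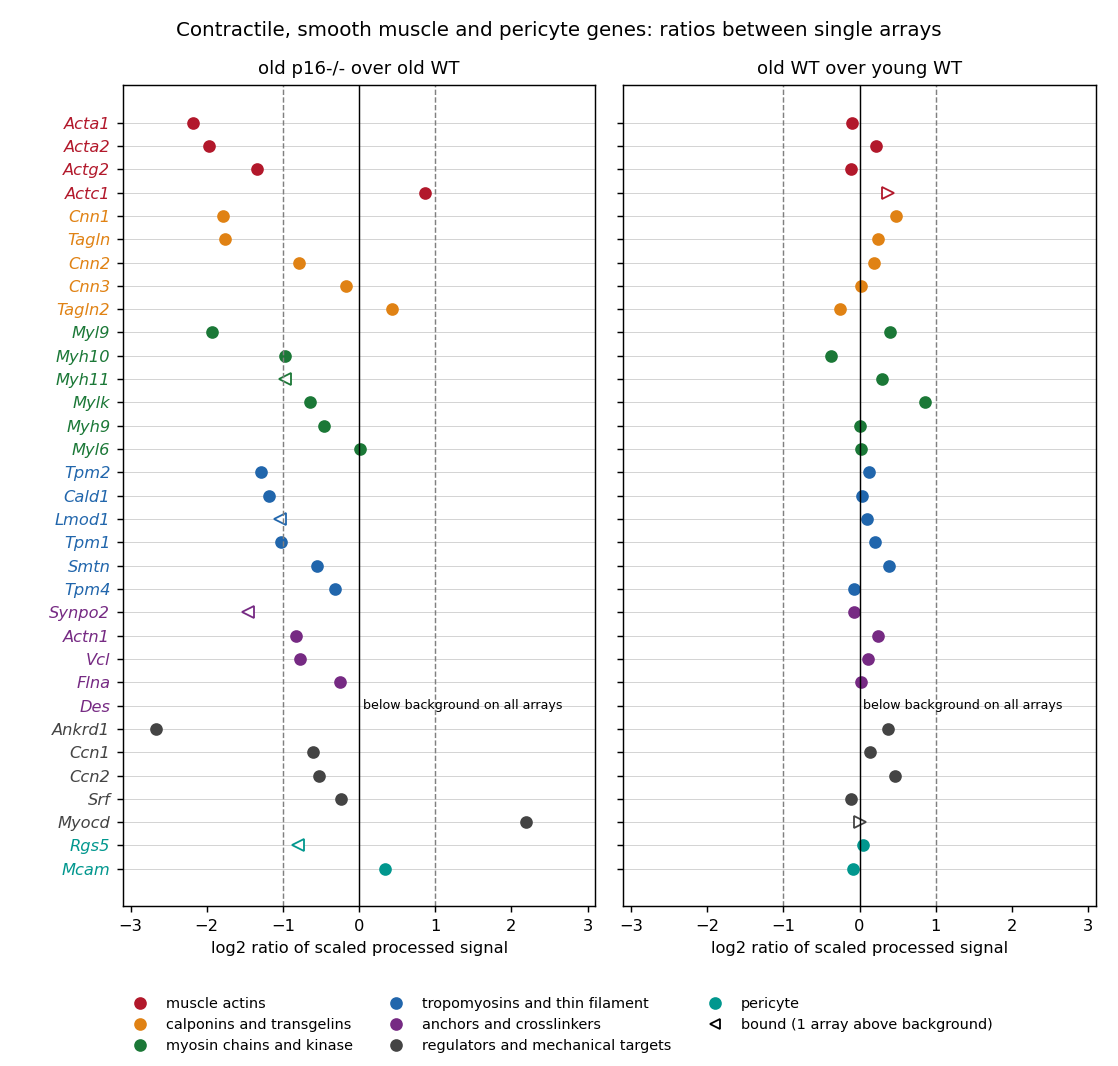
Log2 ratio of the scaled processed signal for each member, by role, for old p16-/- over old WT (left) and old WT over young WT (right), with 1 array per group. Filled circles are measured ratios, open triangles are bounds, dashed lines mark 2-fold. On the left 27 of 32 members lie below 0, against 46.7% of all genes. There 12 pass the lower 2-fold line, against 6.61% of all genes, and Myocd passes the upper line. On the right none passes either line.

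Of the muscle actins, which form the contractile filament, 3 of 4 were at least 2-fold lower on old p16-/- than on old WT, against 6.61% of all genes. Acta2, the alpha smooth muscle actin that defines myofibroblasts, gave 148230 in young WT, 165017 in old WT and 42072 in old p16-/-. Its probe was spotted 10 times on each array. The spots ran from 137412 to 157606 on young WT, from 153196 to 170569 on old WT and from 38883 to 45432 on old p16-/-. Every old p16-/- spot thus lay below those of both wild-type arrays. These spots repeat 1 probe on 1 array per group, so the gap shows only that the difference exceeds the spotting error. The log2 ratio over old WT was -1.98, a 3.93-fold difference. Acta1, the skeletal muscle actin, gave 7932, 7105 and 1569 on young WT, old WT and old p16-/-, and was 4.54-fold lower on old p16-/- than on old WT (-2.18). Actg2, the gamma actin of visceral smooth muscle, gave 34524, 30679 and 12192 on the arrays in that order, a 2.52-fold difference between the old arrays (-1.34). Actc1, the cardiac actin, went the other way at a far dimmer probe: in young WT it did not clear background, and it gave 68.6 on old WT and 125 on old p16-/- (log2 ratio 0.86). The coding sequences of these actins are nearly identical, and how far a probe also reads its relatives was not tested.

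**Figure D2:**
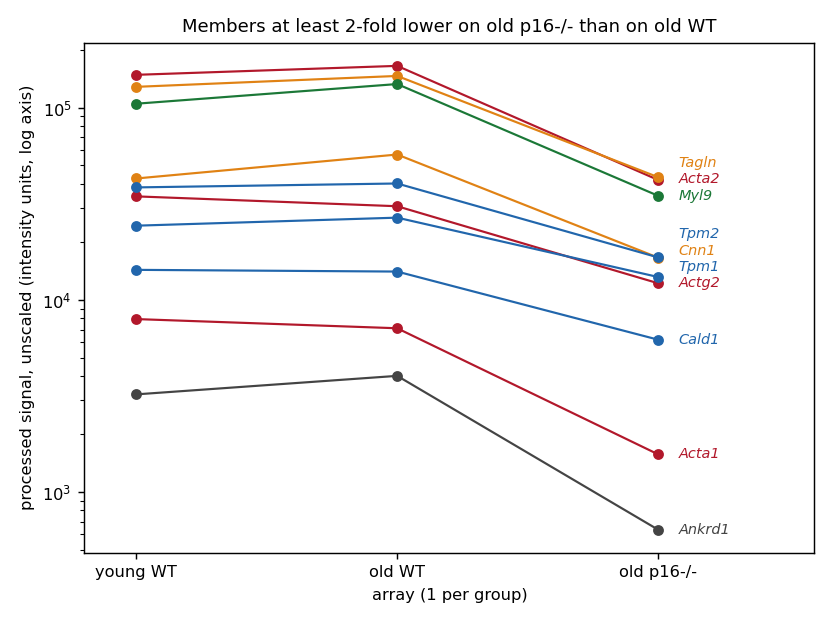
Unscaled processed signal (log axis) on the 3 arrays for the 10 members whose measured ratio was at least 2-fold lower on old p16-/- than on old WT; each line is 1 gene, each point 1 array. All 10 are lowest on old p16-/-, and Acta2 runs from 165017 on old WT to 42072.

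Transgelins and calponins, which bind actin filaments, divided by isoform. Tagln (SM22 alpha), the smooth muscle form and an early marker of that lineage, gave 128345 in young WT, 146254 in old WT and 43484 in old p16-/-, where it was 3.37-fold lower than on old WT (-1.75). Tagln2, the broadly expressed form, gave 167281, 134396 and 182647, and was 1.35-fold higher on old p16-/- than on old WT (0.44). The difference between the ratios of this pair, Tagln minus Tagln2, was -2.19 log2 units. Cnn1, the smooth muscle calponin, gave 42791, 57018 and 16578, a 3.45-fold difference between the old arrays (-1.79). Cnn2 gave 18157, 19870 and 11489 (-0.79), and Cnn3 gave 38474, 37262 and 33050 (-0.18), both forms being found in many cell types. The order Cnn1, Cnn2, Cnn3 ran from the lowest ratio to the highest, with a difference of -0.99 log2 units for Cnn1 minus Cnn2 and of -1.61 for Cnn1 minus Cnn3.

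Myosin II supplies the force, and among its 6 members a like contrast lay between the light chains Myl9 and Myl6. Myl9, the regulatory light chain of smooth muscle and of stress fibres, gave 104851 in young WT, 132705 in old WT and 34798 in old p16-/-, 3.83-fold lower than on old WT (-1.94). Myl6, the essential light chain of the same motor in most cells, gave 204957, 199951 and 202344, so that the log2 ratio of the old arrays was 0.01, within the spotting error of 0.0776. Outside the listed genes, the closest relatives of Myl9 gave log2 ratios of -0.34 (Myl12a) and 0.20 (Myl12b). Of the heavy chains, Myh10 (non-muscle myosin IIB) gave 2297, 1699 and 865, a 1.97-fold difference between the old arrays that stopped short of the line (-0.98). Myh9 (non-muscle myosin IIA) gave 117894, 113471 and 82805 (-0.46). Myh11, the heavy chain of differentiated smooth muscle, was dim, at 78.1 on young WT and 91.8 on old WT, and was not well above background on old p16-/-, which makes it at least 1.96-fold lower there. Mylk, the kinase that activates the light chain, gave 318, 554 and 355, highest on old WT (-0.65 for the old arrays).

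**Figure D3:**
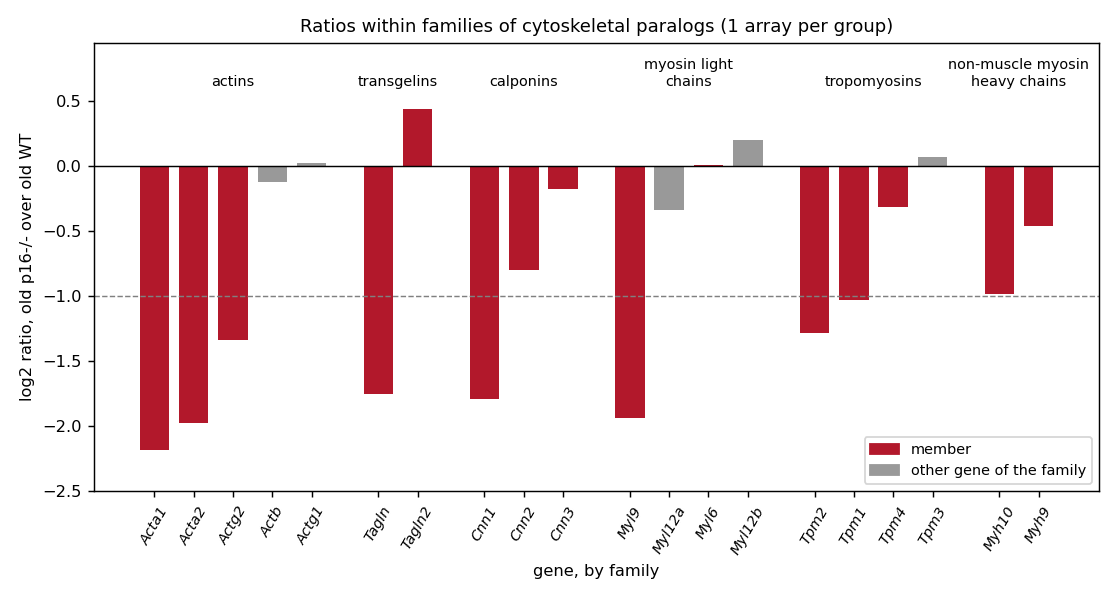
Log2 ratio of old p16-/- over old WT for cytoskeletal paralogs, grouped by family; bars start at 0, red bars are members, grey bars are other genes of the family, the dashed line marks 2-fold lower, and there is 1 array per group. Acta2, Tagln, Cnn1 and Myl9 lie between -1.75 and -1.98, while Actg1, Tagln2, Cnn3 and Myl6 lie between -0.18 and 0.44. Actb, Tpm3 and Myl12b lie in the latter range as well. Among the bars in between are Myh10 (-0.98), Cnn2 (-0.79), Myh9 (-0.46), Myl12a (-0.34) and Tpm4 (-0.32). The dim members Actc1 (0.86) and Myh11 (a bound of -0.97) are not drawn.

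Tropomyosins and the other thin filament proteins were below 0 in 6 of 6, against 46.7% of all genes. Of the 6, 4 were at least 2-fold lower, against 6.61% of all genes. Tpm2 (beta tropomyosin) gave 38446 in young WT, 40294 in old WT and 16621 in old p16-/- (2.43-fold lower than on old WT, -1.28). Cald1, which encodes caldesmon, an inhibitor of actomyosin, gave 14310, 14020 and 6199 (2.27-fold lower, -1.18). Tpm4 gave 88324, 80688 and 64990 (-0.32), and Tpm3, a relative outside the list, had a ratio of 0.07. Smtn, which encodes smoothelin of contractile smooth muscle, gave 7795, 9732 and 6637 (-0.56). Lmod1, the leiomodin that nucleates smooth muscle actin, gave 93.5 on young WT and 96.0 on old WT, was not well above background on old p16-/-, and so was at least 2.05-fold lower there.

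Tpm1 was the member whose value hung on the probe. Its brightest probe gave 24300 in young WT, 26755 in old WT and 13139 in old p16-/-, a log2 ratio of -1.03 for the old arrays. The other 4 probes, assigned by the array design to 3 further transcripts of the gene, gave -0.34, -0.86, -1.88 and -1.94. The last 2 of these are assigned to the same transcript and differed by less than the spotting error. All 5 probes were below 0, and their spread of 1.59 log2 units was far above the spotting error. Of the 10 members with several probes above background, the other 9 had probes that lay within 0.3 log2 units of each other.

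Actin anchors and crosslinkers tie stress fibres to adhesions. Vcl, which encodes vinculin of focal adhesions, gave 11520 in young WT, 11919 in old WT and 6961 in old p16-/- (1.72-fold lower than on old WT, -0.78). Actn1, the crosslinker alpha-actinin, gave 6684, 7583 and 4287 (-0.83), and Flna, the crosslinker filamin A, gave 165668, 160778 and 135474 (-0.25). None of these measured members reached 2-fold. Synpo2, which encodes an actin-bundling protein of muscle, was at 141 and 128 on young and old WT. It was not well above background on old p16-/-, at least 2.75-fold lower than on old WT. This value rests on the brightest of its 3 probes, the others being below background on every array. Des, the muscle intermediate filament desmin, did not clear background at any of its 8 or 9 usable spots per array and was left uncounted.

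Of the 5 regulators and mechanical targets, 1 was at least 2-fold lower and 1 higher, against 6.61% and 5.89% of all genes. Srf itself gave 4045 in young WT, 3578 in old WT and 3050 in old p16-/-, a log2 ratio of -0.23 for the old arrays. Ankrd1, a mechanical target of the Yap1 arm and of muscle, gave 3217, 4016 and 636. It was 6.33-fold lower on old p16-/- than on old WT (-2.66), the largest measured ratio of any member. Members given as bounds may differ by more. Ccn1 gave 31793, 33511 and 22161 (-0.60) and Ccn2 gave 92718, 122998 and 85905 (-0.52). Both encode matricellular proteins that are standard readouts of Yap1, and both were less than 2-fold apart. Myocd, which encodes myocardin, stayed at background in young WT and gave 51.9 on old WT and 238 on old p16-/-, 4.57-fold higher than on old WT (2.19). Myocd thus ran opposite to the smooth muscle genes it is known to drive, at a signal where reading errors are common: on each array between 4.75% and 6.28% of spots of probes that were otherwise dim read as above background, with signals of up to 870. The same caution holds for Actc1, Mylk, Myh11, Lmod1, Synpo2 and Rgs5, all of which stayed below 1000 on every array.

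The pericyte genes in the list did not share a direction. Mcam (CD146), a surface protein of pericytes and endothelium, gave 26783 in young WT, 24299 in old WT and 30906 in old p16-/- (0.34), from the brighter of 2 probes, the other being below background. Rgs5, a regulator of G protein signalling that marks pericytes, gave 82.8 on young WT and 81.7 on old WT and was not well above background on old p16-/- (at least 1.75-fold lower). Among 15 further pericyte markers that could be counted, 1 was at least 2-fold higher, 2 were lower and the median was 0.08. These shares, 6.67% and 13.3%, compare with 5.89% and 6.61% of all genes. Zic1, a transcription factor, gave 3777 on old WT and 68.0 on old p16-/- (-5.80), and Rgs4, a relative of Rgs5, gave 354 and 1349 (1.93). Pdgfrb, the receptor through which pericytes are recruited, gave 8161 and 4219 (-0.96), and the proteoglycan gene Cspg4 (NG2) gave 10476 and 15936 (0.60). Neither of these defining markers was 2-fold apart, and they lay on opposite sides of 0.

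**Figure D4:**
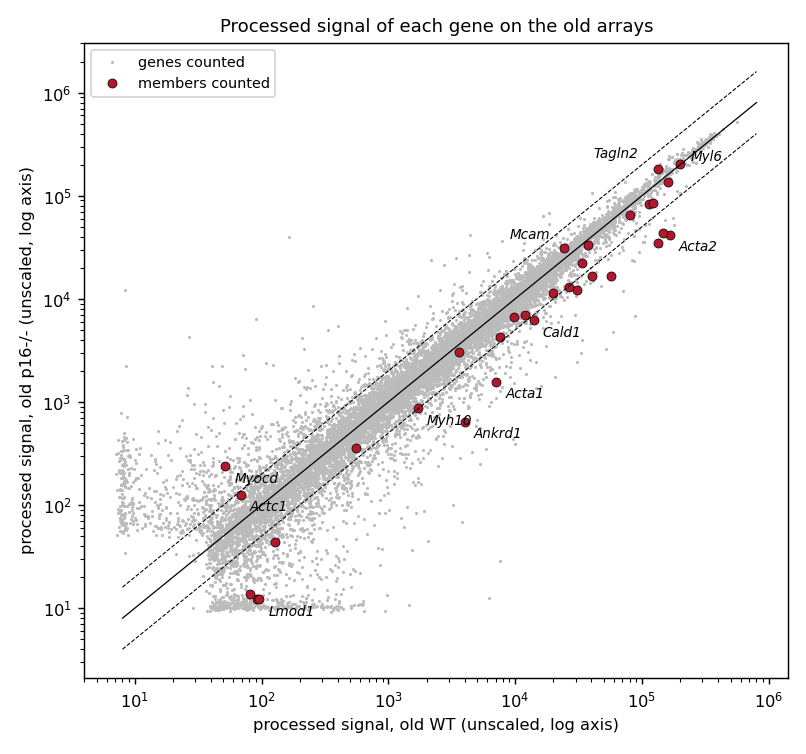
Unscaled processed signal on old WT (x) against old p16-/- (y), both log axes; grey points are the 14691 genes counted, red points the 32 members counted, the solid line marks equality and the dashed lines 2-fold. Acta2, Acta1 and Ankrd1 sit below the lower dashed line, Tagln2 and Mcam above equality, and Myocd above the upper line at a dim signal.

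The wild-type arrays of the 2 ages differed less in these genes. Between old WT and young WT, 0 of 32 members were at least 2-fold higher, against 2.92% of the 14546 genes counted, and 0 were at least 2-fold lower, against 3.17%. The log2 ratios ran from -0.38 (Myh10) to 0.86 (Mylk), with a median of 0.10 against 0.00 for all genes. Of the 32, 23 were above 0, against 47.4% of all genes. With the limit of 1000 on the signal, 0 of 25 were higher and 0 lower, against 1.17% and 0.562% of such genes. Cnn1 and Ccn2 were each at 0.47, Myl9 at 0.40, Smtn and Ankrd1 at 0.38, Tagln at 0.25 and Acta2 at 0.21. On the low side, Tagln2 was at -0.26. Here Tagln stood 0.50 log2 units above Tagln2 and Myl9 stood 0.38 above Myl6, the reverse of their order between the old arrays. Both comparisons hold the old WT array, on opposite sides of the ratio, so the reversal is not a separate result. Myh10 minus Myh9 was below 0 in both comparisons (-0.38 here and -0.52 between the old arrays). These differences exceed the spotting error of 0.0782, and no donor replicate shows whether they exceed the spread between mice.

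Against the young array, the old p16-/- cells were also low. This comparison and the other 2 share arrays, so their agreement is not separate support. Of 32 members, 11 were at least 2-fold lower, against 6.96% of 14281 genes, and 2 were higher, against 6.34%, with a median of -0.64. With the limit of 1000 on the signal, 10 of 25 were lower, against 4.19%, and 0 higher, against 3.42%. The 2 that were higher, Actc1 (at least 2.34-fold) and Myocd (at least 4.46-fold), are the dim genes that stayed at background in young WT. Acta1 was at -2.28, Ankrd1 at -2.28, Acta2 at -1.76, Myl9 at -1.54, Tagln at -1.51, Actg2 at -1.45 and Cnn1 at -1.31. Myh10 was at -1.35, farther below young WT than below old WT. Ccn2, at -0.05, and Smtn, at -0.18, were near the young level. Over the 26 members above background on all 3 arrays, old p16-/- was the lowest array for 22 (84.6%, against 36.6% of all 12887 such genes) and old WT the highest for 18 (69.2%, against 28.9%). The 4 members with another lowest array were Tagln2, Myl6, Mylk and Mcam.

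The promoters of the members show which of them carry the elements named above. RefSeq promoter windows (build GRCm38.p6, from 250 bases before to 50 after the start) were found for 28 of the 33 members, and not for Actg2, Myh11, Myocd, Ccn2 and Tagln. The CArG box was searched as the exact pattern CCWWWWWWGG, with W for A or T, and a box below means a match to it. A box lay in the window of 7 of the 28 (25.0%), against 1.81% of 27025 genes. The TEAD motif GGAATG, searched on both strands, lay in 13 of the 28 (46.4%), against 16.6% of genes. Stretches of 120 bases around these elements are shown for members that were lower on old p16-/- than on old WT (Acta1, Myl9). Shown too are members with the box that were not lower (Actc1, Myl6). Srf is shown because it carries a pair of boxes before its own start, and Ankrd1 as the member with the largest measured ratio. The letters run 5′ to 3′ on the strand of the gene, capitals mark the CArG box, or in Ankrd1 the TEAD motif, and positions are in GRCm38.p6.
Acta1 (chr8:123894784-123894903, minus strand): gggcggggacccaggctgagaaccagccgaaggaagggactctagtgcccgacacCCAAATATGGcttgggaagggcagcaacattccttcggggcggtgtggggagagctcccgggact
Myl9 (chr2:156775248-156775367, plus strand): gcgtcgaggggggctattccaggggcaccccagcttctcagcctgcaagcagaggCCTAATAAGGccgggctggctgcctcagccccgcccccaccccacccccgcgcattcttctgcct
Actc1 (chr2:114052858-114052977, minus strand): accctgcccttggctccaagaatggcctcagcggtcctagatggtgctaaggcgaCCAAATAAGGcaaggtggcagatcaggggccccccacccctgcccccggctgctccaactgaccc
Myl6 (chr10:128492995-128493114, minus strand): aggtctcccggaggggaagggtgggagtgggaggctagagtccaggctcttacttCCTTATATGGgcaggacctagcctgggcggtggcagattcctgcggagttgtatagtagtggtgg
Srf (chr17:46556170-46556289, minus strand): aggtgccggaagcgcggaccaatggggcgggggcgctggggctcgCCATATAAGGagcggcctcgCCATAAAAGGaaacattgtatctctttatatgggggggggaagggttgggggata
Ankrd1 (chr19:36119949-36120068, minus strand): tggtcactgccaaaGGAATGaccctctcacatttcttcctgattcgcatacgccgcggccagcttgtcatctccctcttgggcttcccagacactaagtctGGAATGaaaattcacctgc

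In Acta1 the box starts 73 bases before the start of the gene, in Myl9 161, in Actc1 47 and in Myl6 50, and the pair in Srf at 82 and 62. The Myl6 box lies before a downstream start of that gene. A further Myl6 window, upstream at chr10:128493837-128494136, holds no box. The TEAD motifs of Ankrd1 start at 210 and 123. The log2 ratios of old p16-/- over old WT for the 7 members with a box were -2.18 (Acta1), -1.94 (Myl9), -0.79 (Cnn2), -0.78 (Vcl), -0.23 (Srf), 0.01 (Myl6) and 0.86 (Actc1). They thus lay on both sides of 0. Acta2 (-1.98) and Cnn1 (-1.79), with no exact match to the pattern in the window, lay between Acta1 and Cnn2. Outside the members, 187 genes with a box in the window were counted, of which 20 (10.7%) were at least 2-fold lower and 11 (5.88%) higher, with a median of -0.04. Of 11447 other genes with a window but no CArG box in it, 703 (6.14%) were lower. Genes with a TEAD motif were not left out of that set. For the TEAD motif, 112 of 1723 other genes were lower (6.50%). A match of letters is no evidence of binding, and elements farther from the start lie outside these windows. Boxes that depart from the exact pattern were not searched for, so a window without a match may still hold one.

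The general actin cytoskeleton lay near 0 between the old arrays. Among 23 other actins, myosins and actin-binding genes, 0 were 2-fold apart in either direction and the median was -0.03. Of all genes, 6.61% were lower and 5.89% higher. Actb and Actg1, the cytoplasmic actins, were at -0.12 and 0.02, and Vim, the fibroblast intermediate filament, at -0.03.

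The cofactors of Srf and TEAD had a median of -0.15 over 17 genes. Of these, 2 were at least 2-fold lower (11.8%, against 6.61% of all genes). Mrtfa, the actin-sensing partner of Srf, gave 17219 on old WT and 10284 on old p16-/- (-0.75), while its relative Mrtfb was at 0.03 and Yap1 at 0.22. Fhl2, a cofactor that is itself an Srf target, was at -1.03. Of 29 further target genes of these factors, 3 were lower and 2 higher, with a median of -0.31. These shares, 10.3% and 6.90%, compare with 6.61% and 5.89% of all genes. F3, the tissue factor of blood clotting, gave 43410 on old WT and 18012 on old p16-/- (-1.27). Nt5e (CD73) gave 3810 and 9347 (1.29).

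Focal adhesion and actin crosslinking genes lay mostly below 0: 26 of 36 were below 0 with a median of -0.28, against 46.7% of all genes below 0, and 3 were at least 2-fold lower (8.33%, near the 6.61% of all genes). These were Flnc, the muscle filamin (19077 and 5795, -1.72), Csrp1, a partner of alpha-actinin (174956 and 61272, -1.52), and Itga5, the fibronectin receptor chain (-1.20). TGF-beta is the main inducer of Acta2 in fibroblasts, and of 18 genes of its pathway (ligands, receptors and Smads, with the latent TGF-beta binding proteins, the repressors Ski and Skil, and Inhba and Fst of the activin branch) 15 were below 0, with a median of -0.27, and 2 were at least 2-fold lower (11.1%). Tgfb3 gave 29714 on old WT and 6917 on old p16-/- (-2.11), Ltbp2, a matrix protein related to the latent TGF-beta binding proteins, was at -1.37, and Tgfb1 was at -0.07.

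**Figure D5:**
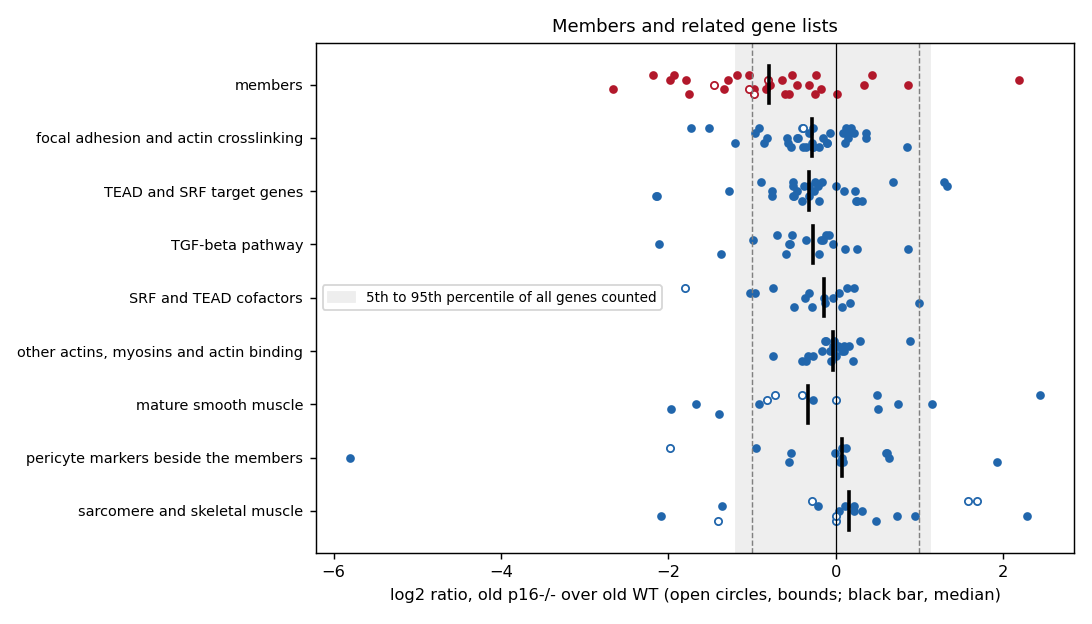
Log2 ratio of old p16-/- over old WT for each gene of the members (red) and of 8 related lists (blue), with 1 array per group; open circles are bounds, black bars medians, dashed lines 2-fold, and the grey band holds the 5th to 95th percentile of all genes counted. The members have a median of -0.80, and the lists have medians from -0.34 to 0.16.

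Markers of the cell types that could carry the programme did not move as 1 block. Among all genes counted between the old arrays, 6.61% were at least 2-fold lower and 5.89% higher. Of 20 mature smooth muscle markers, 14 could be counted, of which 3 were lower and 2 higher (median -0.34). Nexn, an actin-binding protein, was at -1.39 and Synm, the intermediate filament synemin, at 2.44 (540 on old WT and 2943 on old p16-/-). Of 30 sarcomere and skeletal muscle genes, 18 could be counted, with 3 lower, 3 higher and a median of 0.16, and Myod1, Myog and Ckm, which define that lineage, did not clear background in the old cells. Of 12 fibroblast markers, 2 were higher and 1 lower, with a median of -0.09: Col1a1 was at -0.30, Thy1, a surface glycoprotein of fibroblasts, gave 52045 on old WT and 3287 on old p16-/- (-3.99), and the higher ones were Pdgfra (1.60) and Fap (587 and 1668). Endothelial markers had a median of -0.03 over the 6 counted and keratinocyte markers 0.06 over 7. Of 6 Schwann cell markers counted, 3 were at least 2-fold higher and 1 lower, with a median of 0.97. Between the wild-type arrays 5 of 5 of these markers were above 0 in old WT, against 47.4% of all genes, also with a median of 0.97. Of them, 2 were at least 2-fold higher, against 2.92% of all genes. Col1a1, Vim and Pdgfra were well above background on all 3 arrays, as the label of tail-tip fibroblasts implies, while macrophage markers such as Lyz2 (2017 on young WT, 422 on old WT, at background in old p16-/-) were also read. The part of these markers in the values of the contractile genes was not tested.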

How the data were processed

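Day 8 RNA was measured on 3 one-colour Agilent arrays, 1 per group. The authors' deposited files hold linear spot intensity (processed signal) from Feature Extraction 11.5.1.1, background-subtracted and spatially detrended but not normalized between arrays, per the file headers. The deposited value table equalled that intensity within 0.0001 for 38880 of 38880 probes spotted once, and its column medians were 137 (young WT), 135 (old WT) and 132 (old p16-/-), so its scale is linear and uncentred. Control and outlier spots were left out, spots of a probe averaged, and log2 values set relative to each array's 75th percentile. Accessions named 27508 of 39429 probes through RefSeq (GRCm38.p6; the array design uses another build, so no probe positions are given). A gene was counted if either array of a comparison read it well above background. Bounds under 1-fold were entered as 0. With 1 array per group the call rule is 2-fold, beside its share among all genes, and their number limits the precision of the arrays. The arithmetic of the scaling and of the 2-fold rule was checked on simulated intensities, which does not bear on whether a difference between single arrays would recur. The members and lists were chosen with earlier results of these data known. Named genes are all members and, from each list, up to 6 genes at least 2-fold apart with a signal of 1000 or more and up to 3 others, with Cdkn2a, Xist and Ddx3y as checks. Alternatives used limma 3.58.1 in R 4.3.3 (normexp with offset 50, quantile, cyclic loess), and Python 3.11.15 did the rest. Normexp was planned on mean spot signals and was run on the median spot signals. Some genes of the lists are not reported here.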

Additional observations from a re-analysis of the deposited data

How the results depend on the processing

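No paired analysis was possible because each group has 1 array. For old p16-/- over old WT, the median log2 ratio of the members was -0.70 with normexp, -0.88 with cyclic loess and -0.71 over the 28 members above background on both arrays. The count of lower members was 20 at 1.5-fold and 6 at 3-fold, and that of higher members was 2 at 1.5-fold and 0 at a signal of at least 1000. For old WT over young WT, the count of higher members was 1 without a background filter and 1 at 1.5-fold. For old p16-/- over young WT, the median was -0.53 with normexp. The count of lower members there was 18 at 1.5-fold and 3 at 3-fold, and that of higher members 1 with normexp, 0 above background on both arrays, 0 at a signal of at least 1000 and 1 at 3-fold. Over the 7 alternatives that keep all genes, the sign for old p16-/- over old WT was kept by 31 of 32 members (not Myl6) and the 2-fold call by 27. Tpm1 (-1.11 to -0.98), Lmod1 (-1.15 to -0.86), Synpo2 (-1.49 to -0.77), Myh10 (-1.02 to -0.93) and Myh11 (-1.09 to -0.59) crossed the line. For old WT over young WT the sign was kept by 25 of 32, the others being Cnn3, Myl6, Myh9, Cald1, Flna, Myocd and Rgs5, and the call by 32. For old p16-/- over young WT the sign was kept by 31 (not Myl6) and the call by 30 (not Actc1 and Synpo2). Normexp was run on median spot signals in place of the planned means. The cause of these shifts was not tested. Signal over background limits the 7 members below 1000, and a single array per group limits every value.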
